A study of Homo sapiens with 40 samples.

Results

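Human genes whose symbol is LINC followed by a number are long intergenic noncoding RNA (lincRNA) genes by the name given to them in older annotation. The count files held 549 such symbols (LINC00657 was left out), among 55765 symbols in all. A LINC transcript was taken as a member when its mean level was at least 0.5 counts per M counts of the library (CPM, M for mega) in the 4 input libraries of cells with control siRNA. This left 74 members. Another 284 of the symbols had no count in those 4 libraries. Just inside the threshold were LINC00106 at 0.514 CPM, LINC00504 at 0.513 and LINC00936 at 0.502, and just outside it were LINC00941 at 0.498, LINC00327 at 0.495 and LINC00242 at 0.488.

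All 40 libraries came from HEK293 cells, an established human embryonic kidney line, and were prepared as stranded poly(A) mRNA libraries. In untransfected cells, total RNA was sequenced beside RNA recovered with an antibody against endogenous eIF4A1, eIF4A2 or DDX6 (RNA immunoprecipitation, IP), with 3 libraries in each of these 4 groups. For sucrose gradients, cells were transfected with a control siRNA or an siRNA to CNOT1. Unfractionated input RNA was sequenced beside the pool of fractions 1 to 5 (subpolysomal RNA) and that of fractions 6 to 11 (polysomal RNA), with 4 libraries in each of these 6 groups. Total RNA was also sequenced from cells with control siRNA and from cells in which TNRC6A and TNRC6B were knocked down together, with 2 libraries in each group. A knockdown lowers the targeted mRNA without removing it, and each group stems from the same line. No IP with a control antibody was analysed here, so an IP level is relative to total RNA only.

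Long noncoding RNAs are capped, spliced and often polyadenylated, and many stay in the nucleus, while others are exported and can meet ribosomes. Transcripts first named LINC have in several cases been found to encode a microprotein from a short reading frame, and have then been renamed. Others are host genes, whose introns or exons carry small nucleolar RNAs or microRNAs. eIF4A1 and eIF4A2 are paralogous DEAD-box RNA helicases, eIF4A1 being a subunit of the cap-binding complex eIF4F. DDX6 is a DEAD-box protein of P bodies that binds CNOT1, the scaffold of the Ccr4-Not deadenylase complex, and TNRC6A and TNRC6B are GW182 proteins, which bring that complex to Argonaute.

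Current annotation (GENCODE release 44 on GRCh37, which is hg19, and RefSeq symbols) places 13 members in a protein-coding gene or under a coding gene's symbol, here called coding members, and 6 under the symbol of a small RNA host gene. The other 55 are still annotated as noncoding. Of all 74, 46 were matched in GENCODE by their own symbol and 23 as the older symbol of a RefSeq gene found there. The other 5 had no GENCODE locus and were classed by their RefSeq entry. In all, 66 lay at a single locus. Of those 66, 14 overlapped a coding gene on the opposite strand and 6 one on the same strand. The strand option of the read counter was not given in the sources used here, so reads of such a member and of its overlapping gene cannot be told apart. Such members include LINC00094, opposite in strand to BRD3, and LINC00338, on the same strand as SEC14L1.

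The reading frames of 7 coding members are shown, because the annotation of such a frame is what set these transcripts apart from the other members. In each the first 30 bases lie in 1 exon. Frames of LINC00086, LINC00087, LINC00341, LINC00610 and LINC00846 were not read, so the lengths below leave these members out. Each line gives the first 30 bases of the annotated coding sequence in GRCh37, with the start codon in capitals.
LINC00998 (SMIM30, 59 codons, chr7:112757604-112757633, minus strand): ATGacctcagtttcaacacagttgtcctta
LINC00116 (MTLN, 56 codons, chr2:110970073-110970102, minus strand): ATGgcggatgtgtcagagaggacactgcag
LINC00094 (BRD3OS, 84 codons, chr9:136891870-136891899, plus strand): ATGagtggccgtgtccccctggcagagaag
LINC00493 (SMIM26, 95 codons, chr20:18548123-18548152, plus strand): ATGtatcgaaatgagttcacggcctggtac
LINC00984 (INAFM2, 153 codons, chr15:40616257-40616286, plus strand): ATGaaggagcgcgacgcggccccggccgag
LINC00634 (SMIM45, 68 codons, chr22:42353690-42353719, plus strand): ATGccgcacttcctggactggttcgtgccg
LINC00999 (125 codons, chr10:38717129-38717158, plus strand): ATGagccagcgcatctggccaccgtatttt
The 7 frames shown are short, from 56 to 153 codons. The frame of LINC00176 (C20orf204), with 189 codons, was read too and is not shown, as its first 30 bases do not lie in 1 exon. LINC00999 is coding in GENCODE and noncoding in RefSeq. SMIM30, MTLN and SMIM26 encode small membrane proteins, and those of MTLN and SMIM26 sit in mitochondria.

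The other coding members were LINC00176 (C20orf204), the near-identical pair LINC00086 and LINC00087 (SMIM10L2A and SMIM10L2B), between which reads cannot be assigned with certainty, and LINC00341, LINC00610 and LINC00846. For these last 3 the current symbol (SYNE3, COMMD9 and TCP10L) has a row of its own in the count files. The host members were LINC00461 (MIR9-2HG), LINC00478 (MIR99AHG), LINC00969 (MIR570HG) and LINC00669 (MIR924HG), named for microRNAs, and LINC00338 (SNHG20) and LINC00888 (SNHG33), named as snoRNA hosts. Genes of snoRNAs lay within the span of LINC00888, whereas a microRNA gene and no snoRNA gene was found within that of LINC00338. Mature microRNAs are shown because they are what sets the hosts apart in the annotation. They come from RefSeq with GRCh38.p14 positions, and the seed (bases 2 to 8) is in capitals.
miR-9-5p in LINC00461 (chr5:88666902-88666924, minus strand): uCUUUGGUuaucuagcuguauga
let-7c-5p in LINC00478 (chr21:16539838-16539859, plus strand): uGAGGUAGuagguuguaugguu
miR-99a-5p in LINC00478 (chr21:16539101-16539122, plus strand): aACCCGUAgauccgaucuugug
miR-125b-5p in LINC00478 (chr21:16590253-16590274, plus strand): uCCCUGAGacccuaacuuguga
miR-570-3p in LINC00969 (chr3:195699460-195699481, plus strand): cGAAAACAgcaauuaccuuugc
miR-924 in LINC00669 (chr18:39622153-39622172, minus strand): aGAGUCUUgugaugucuugc
miR-6516-5p in LINC00338 (chr17:77089428-77089449, plus strand): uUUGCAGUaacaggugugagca
No seed in this list occurs more than once. Small RNAs lay within the span of 8 of 71 members compared, the 6 hosts and 2 others, LINC00843 and LINC01057. The microRNAs themselves were not measured in these libraries.

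Library totals ran from 15.35 to 46.02 M counts. LIN28B and IGF2BP1, expressed in embryonic cells, and the neurofilament genes NEFL and NEFM were high in every library. The kidney gene PAX2 stayed between 0.111 and 1.59 CPM. Of genes not expected in this line, the leukocyte genes PTPRC and CD3E reached at most 0.0775 and 0.0625 CPM. The endothelial gene VWF reached 1.38 CPM and the fibroblast gene DCN 0.391. The fibroblast gene COL1A1 was found in every library, at 1.29 to 19.9 CPM. CNOT1 was at 593 to 657 CPM in control input and at 36.2 to 41.1 with CNOT1 siRNA, and at 235 to 310 against 91.6 to 104 in subpolysomal RNA. In polysomal RNA, 2 libraries went against their labels. For control siRNA, the library labelled replicate 3 had a CNOT1 level of 27.4 CPM, and the other 3 were at 447 to 469. For CNOT1 siRNA, the one labelled replicate 3 was at 589.8 CPM, and the other 3 were at 22.9 to 31.5. The labels were kept, and results on polysomal RNA are given with and without both libraries. TNRC6A was at 172 and 197 CPM in control cells and at 39.2 and 66.2 after siRNA, and TNRC6B at 65.4 and 76.1 against 17.1 and 26.9.

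Most members were scarce. In control input the median member stood at 2.37 CPM, 57 of 74 reached 1 CPM and 17 reached 10 CPM. LINC00998 at 60.9 CPM, LINC00665 at 54.98, LINC00641 at 42.9, LINC00094 at 29.4 and LINC00649 at 25.1 together took 39.5% of the 539.8 CPM that all members summed to. Per kilobase of merged exons, LINC00998 had the highest level of these 5, 33.1 CPM per kb, against 7.51 for LINC00641, 4.94 for LINC00094, 4.52 for LINC00665 and 1.74 for LINC00649. The next highest member per kilobase was LINC00493 at 16.3. The coding members thus held the first and second place per length, and LINC00665, with many exons in all, moved from second place by counts to behind LINC00094.

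From here on, CPM are scaled by the TMM factors of the experiment, and values follow the order of the replicate numbers. The members' summed level was 825 ± 37.7 CPM in untransfected total RNA, 1251 ± 76.5 in the eIF4A1 IP, 1277 ± 21.4 in the eIF4A2 IP and 1191 ± 120.3 in the DDX6 IP (SD, n = 3 each). In the gradient experiment with control siRNA it was 580.2 ± 6.87 in input, 1157 ± 28.7 in subpolysomal RNA and 517 ± 63.2 in polysomal RNA (SD, n = 4 each). With CNOT1 siRNA it was 497 ± 8.94, 996 ± 44.4 and 477 ± 35.7, and in the TNRC6 experiment 525 ± 26.9 (SD, n = 2) with control siRNA and 463 ± 24.2 with TNRC6A/B siRNA. Every IP library was above every total RNA library, and every subpolysomal library was above every polysomal and input library. The lowest control polysomal value, 422.6, belonged to the library labelled replicate 3. Without both such libraries the polysomal levels were 548.5 ± 7.14 with control and 464 ± 29.7 with CNOT1 siRNA (SD, n = 3 each).

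**Figure D1:**
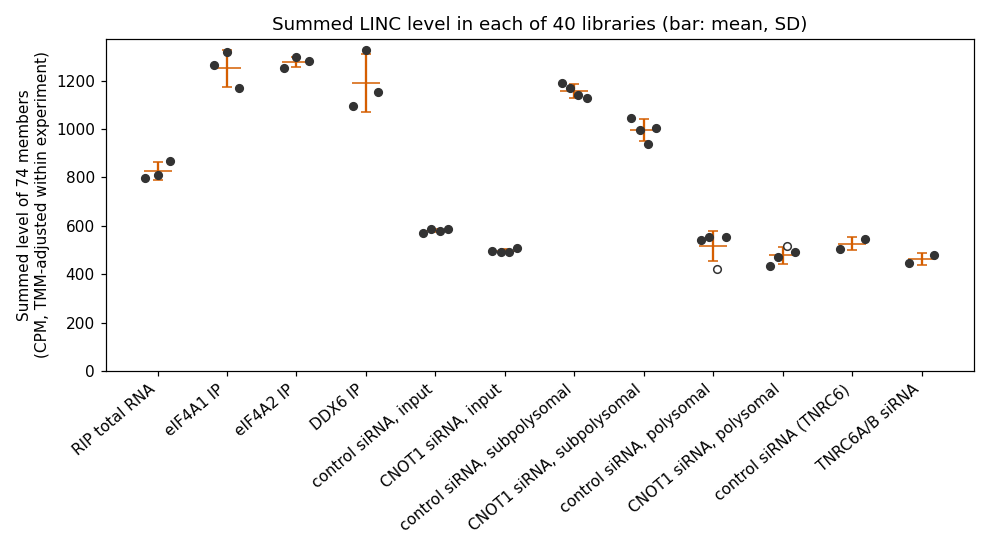
Summed level of the 74 LINC members in each of the 40 libraries, in TMM-scaled CPM on an axis from 0, by group, with the group mean as a bar. The 3 IPs (1095 to 1326) and the subpolysomal libraries (937 to 1192) lie above the total, input and polysomal RNA (423 to 868), and the polysomal libraries labelled replicate 3 are drawn open.

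To ask which LINC transcripts are recovered with each helicase, each IP was compared with total RNA. Most members that differed were higher in the IP. With eIF4A1, 37 of 74 (50%) were higher and 12 (16.2%) lower, and of the 17474 genes tested 26.1% were higher and 26.5% lower. With eIF4A2, 39 (52.7%) were higher and 6 (8.11%) lower, against a background of 24.5% and 25.8%. With DDX6, 33 (44.6%) were higher and 13 (17.6%) lower, against 22.7% and 23.3%. Calls here and below are those of edgeR's quasi-likelihood test, fitted on all genes, with a Benjamini-Hochberg adjusted p (FDR) under 0.05. The median log2 fold change of the members was 0.55, 0.51 and 0.38 in the 3 IPs and that of all genes 0.04, 0.01 and 0.01. All 3 comparisons share the same 3 total RNA libraries. The replicate block gave 44 higher and 11 lower members for eIF4A2, against 30.4% and 31.9%. Library totals in place of TMM factors gave 45 higher and 7 lower for eIF4A1, against 36.9% and 17.8%.

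By class, 7 of 13 coding members were higher in the eIF4A1 IP, 7 in the eIF4A2 IP and 8 in the DDX6 IP, and 1, 0 and 0 were lower. Without the 3 coding members whose current symbol has a row of its own, 7, 6 and 8 of 10 were higher and 0 lower. Among the 6 hosts, 2, 4 and 2 were higher and 1 was lower in each IP, and among the other 55 members 28, 28 and 23 were higher and 10, 5 and 12 lower. Lists of comparison were read the same way. Of 301 antisense transcripts tested, 151, 127 and 122 were higher and 24, 16 and 30 lower, and of 13 SMIM genes, which encode small integral membrane proteins, 7, 7 and 8 were higher and none lower. The 3 nuclear lncRNAs tested were lower in every IP, and so were 9 of 9 mitochondrial transcripts.

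LINC00205, a noncoding member at chr21:46707950-46717721 (plus strand), had the largest eIF4A2 IP difference of the members. Its level was 9.42, 9.18 and 12.6 CPM in total RNA, 53.2, 33.0 and 42.9 in the eIF4A1 IP, 84.4, 64.7 and 72.03 in the eIF4A2 IP and 23.2, 19.8 and 23.3 in the DDX6 IP. The 4 groups did not overlap, with the eIF4A2 IP highest, then the eIF4A1 IP, the DDX6 IP and total RNA. The log2 fold change over total RNA was 2.83 (SE 0.198, edgeR FDR 5.07e-07) in the eIF4A2 IP, 2.05 (SE 0.193, FDR 3.59e-06) in the eIF4A1 IP and 1.09 (SE 0.189, FDR 0.00051) in the DDX6 IP.

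The SMIM10L2 pair was also recovered in each IP. LINC00086 was at 2.76, 2.67 and 2.84 CPM in total RNA, 12.3, 10.7 and 10.6 in the eIF4A1 IP, 12.2, 12 and 16.04 in the eIF4A2 IP and 6.99, 7.92 and 8.08 in the DDX6 IP. Each IP library exceeded each total RNA library. Their means differed from total RNA by log2 fold changes of 2.02 (SE 0.160, edgeR FDR 1.39e-06), 2.28 (SE 0.161, FDR 5.18e-07) and 1.47 (SE 0.159) in the eIF4A1, eIF4A2 and DDX6 IP, and for LINC00087, its near-identical copy, 2.06 and 2.32 in the first 2.

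LINC00094 (BRD3OS, chr9:136890603-136899788, plus strand) was the most abundant coding member that rose in every IP. It stood at 39.5, 40.7 and 33.7 CPM in total RNA, 139.2, 144.3 and 114.8 in the eIF4A1 IP, 142.2, 152.8 and 138.6 in the eIF4A2 IP and 101.5, 135.3 and 109.7 in the DDX6 IP. The IP libraries were all above total RNA and the IPs overlapped with their neighbours. The log2 fold changes were 1.80 (SE 0.150, edgeR FDR 1.76e-06), 1.93 (SE 0.151, FDR 9.5e-07) and 1.60 (SE 0.149, FDR 1.19e-05). In the DDX6 IP the largest increases were those of LINC00511 (log2 1.71, SE 0.235, FDR 9.87e-05), LINC00680 (1.70, SE 0.143, FDR 8.3e-06), a symbol with 2 loci, and LINC00094. LINC00680 rose from 25.2, 24.1 and 25.9 CPM in total RNA to 74.3, 94.6 and 74.8.

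Other coding members were recovered as well. LINC00984 (INAFM2) was at 5.66, 6.69 and 8.15 CPM in total RNA, 22.2, 23.6 and 21.0 in the eIF4A1 IP, 28.6, 33.4 and 12.1 in the eIF4A2 IP and 14.7, 17.6 and 11.5 in the DDX6 IP. Its log2 fold changes were 1.71 (SE 0.299, edgeR FDR 0.000377), 1.86 (SE 0.301, FDR 0.000212) and 1.10 (SE 0.297, FDR 0.0085), with every IP library above total RNA. LINC00116 (MTLN) was at 9.95, 10.9 and 4.99 CPM in total RNA, 26.5, 34.1 and 10.1 in the eIF4A1 IP, 11.9, 11.7 and 13.4 in the eIF4A2 IP and 21.6, 28.1 and 17.9 in the DDX6 IP. It passed the test with eIF4A1 (1.45, FDR 0.00518), where replicate 3 lay within the range of total RNA, and with DDX6 (1.38, FDR 0.00808), and not with eIF4A2 (0.52, FDR 0.259). LINC00634 (SMIM45) was higher in each IP, by 1.04, 1.10 and 0.68 on the log2 scale, where the DDX6 call was lost without total RNA replicate 2 or 3 or DDX6 IP replicate 1 or 3 (highest FDR 0.093). The coding member lower with eIF4A1 was LINC00610 (−1.19, FDR 0.00718), whose current symbol COMMD9 has a row of its own.

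LINC00461, the miR-9-2 host (chr5:87803363-87986874, minus strand), was lower in each IP. Its level was 2.37, 1.82 and 2.98 CPM in total RNA, 0.569, 0.451 and 0.694 in the eIF4A1 IP, 0.872, 0.939 and 1.02 in the eIF4A2 IP and 0.475, 0.298 and 0.504 in the DDX6 IP. No IP library reached a total RNA library. Relative to total RNA its log2 fold change was −2.06 (SE 0.256, edgeR FDR 2.81e-05), −1.33 (SE 0.247, FDR 0.000607) and −2.47 (SE 0.265, FDR 2.16e-05). LINC00115 (chr1:759608-762919, minus strand) fell from 3.87, 4.65 and 3.70 CPM to between 1.03 and 1.63 in the 9 IP libraries, with log2 fold changes of −1.76, −1.64 and −1.54.

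LINC00641 (chr14:21668238-21675059, minus strand) was the most abundant member that fell. It was at 43.4, 53.7 and 46.3 CPM in total RNA, 19.4, 16.8 and 18.1 in the eIF4A1 IP, 26.4, 26.8 and 31.4 in the eIF4A2 IP and 21.5, 18.1 and 20.5 in the DDX6 IP. The eIF4A2 IP lay between total RNA and the other IPs without overlap. In the test, the log2 fold change was −1.40 (SE 0.135, edgeR FDR 4.38e-06) with eIF4A1, −0.76 (SE 0.133, FDR 0.000377) with eIF4A2 and −1.25 (SE 0.134, FDR 2.14e-05) with DDX6. The other decreases named by the rule were LINC01004 in the eIF4A2 IP (log2 −1.13, FDR 0.00259) and LINC00504 in the DDX6 IP (−1.39, SE 0.468, FDR 0.0266), which lost its call without DDX6 IP replicate 2 or 3 or total RNA replicate 1 or 3.

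LINC00998 (SMIM30, chr7:112756773-112758615, minus strand), the most abundant member, behaved differently in the DDX6 and eIF4A2 IPs. It was at 91.5, 96.3 and 100.1 CPM in total RNA, 84.4, 134 and 116 in the eIF4A1 IP, 66.7, 89.6 and 66.3 in the eIF4A2 IP and 136, 199 and 153 in the DDX6 IP. All DDX6 IP libraries were above and all eIF4A2 IP libraries below total RNA, while the eIF4A1 IP overlapped with it. The log2 fold change was 0.76 in the DDX6 IP (SE 0.193, edgeR FDR 0.00592) and −0.37 in the eIF4A2 IP (SE 0.192, FDR 0.124), and the latter was called with the replicate block (−0.39, FDR 0.0134). LINC00665 and LINC00649, the remaining abundant members, passed the test in no IP, with log2 fold changes from 0.09 to 0.51 and from −0.32 to −0.01. With the block, LINC00665 was higher in the eIF4A1 IP (0.27, FDR 0.036) and the DDX6 IP (0.48, FDR 0.00162), and LINC00649 was lower in the DDX6 IP (−0.33, FDR 0.0297).

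**Figure D2:**
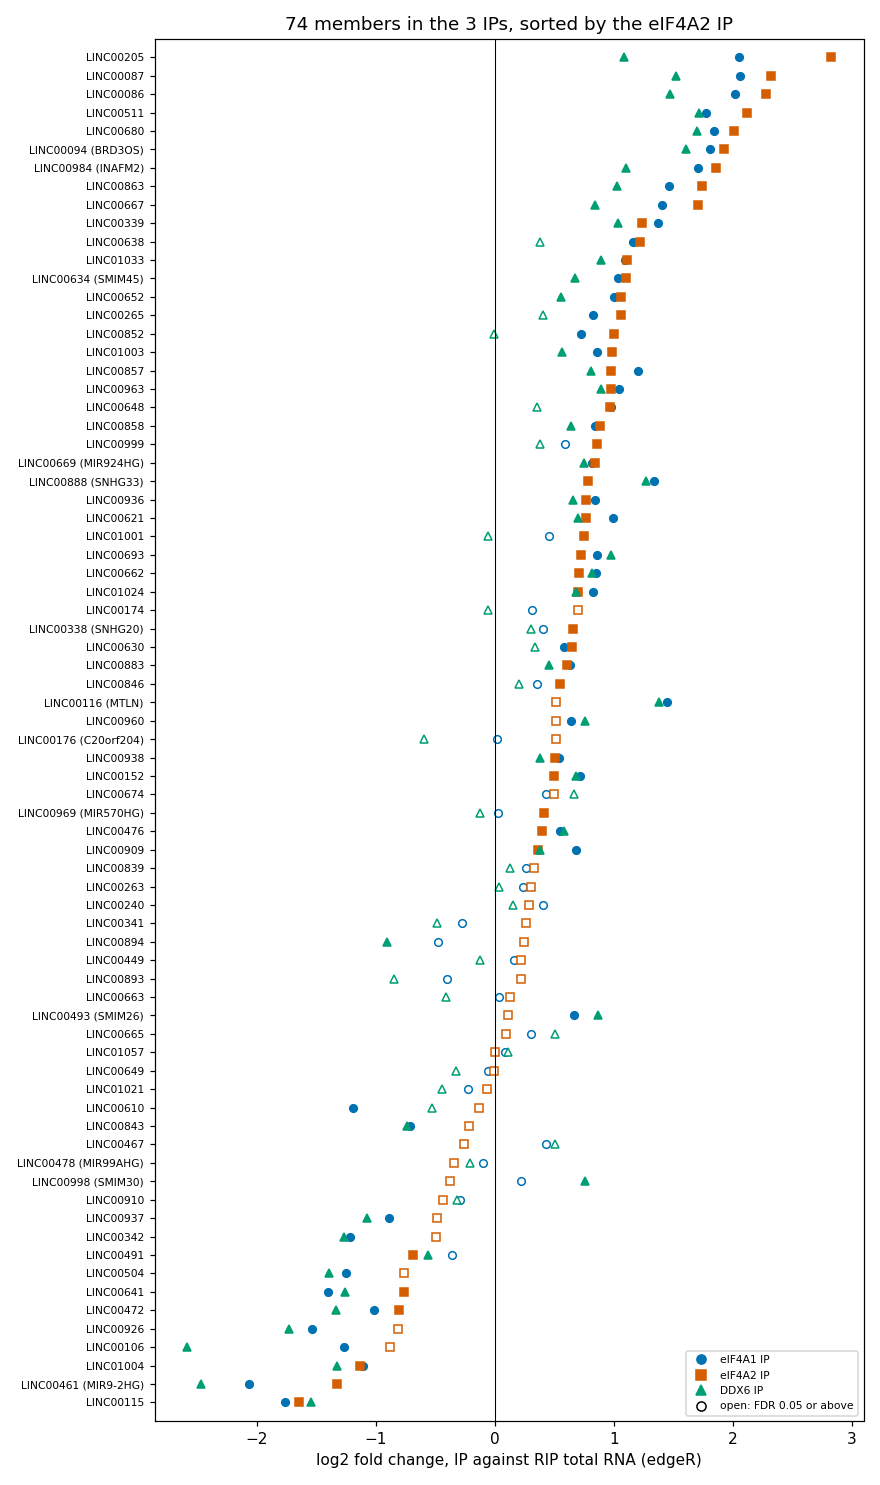
Log2 fold change of each of the 74 members over total RNA in the eIF4A1, eIF4A2 and DDX6 IP, with members ordered by the eIF4A2 IP and filled points called at an FDR below 0.05. The points run from −2.59 for LINC00106 with DDX6 to 2.83 for LINC00205 with eIF4A2, and more filled points lie above 0 than below it in each IP.

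The IPs were then compared with each other, which uses no total RNA library. Between eIF4A2 and eIF4A1, 1 of 74 members was called (1.35%, background 1.06%), and this was LINC00641, higher with eIF4A2 (log2 0.64, SE 0.133, edgeR FDR 0.0377). With the replicate block 9 were higher and 4 lower, where 15.8% of all genes were called, and these included LINC00205, higher with eIF4A2 (log2 0.79, FDR 0.00319, against FDR 0.0633 without the block), and LINC00998, lower (−0.58, FDR 0.00968, against 0.162). The call of LINC00641 was lost without any 1 of the 6 libraries compared.

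Between eIF4A2 and DDX6, 15 members (20.3%) were higher with eIF4A2 and 3 (4.05%) lower, against a background of 9.82% and 11.3%. With the replicate block these were 30 and 6, against 18.5% and 22%, and with library totals 22 and 1, against 15.3% and 6.55%. Without DDX6 IP replicate 2, DDX6 IP replicate 3 or eIF4A2 IP replicate 1 the 18 calls became 7, 11 and 8. LINC00205 was higher with eIF4A2 by 1.74 on the log2 scale (SE 0.188, edgeR FDR 0.00114), followed by LINC00894 (1.15, SE 0.320, FDR 0.0241) and LINC00176 (1.10, SE 0.264, FDR 0.0126). LINC00176 was at 3.86, 2.85 and 2.86 CPM with eIF4A2 and at 1.79, 1.22 and 1.42 with DDX6. The 3 members higher with DDX6 were LINC00998 (log2 −1.13, SE 0.194, FDR 0.00323), LINC00493 (−0.76, SE 0.234, FDR 0.0358) and LINC00467 (−0.76, SE 0.219, FDR 0.0276). Coding members lay on both sides, with LINC00998 and LINC00493 lower and LINC00176, LINC00086 (0.81) and LINC00087 (0.80) higher with eIF4A2, and their median was 0.43 over all 13. LINC00493 stood at 21.5, 30.9 and 22.2 CPM with eIF4A2 and at 37.1, 55.7 and 33.5 with DDX6.

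Longest annotated transcripts of the members differed in composition by class, given here as a description. The median GC content was 52.7% for the 10 coding members at a single locus, 45.9% for 52 others and 38.6% for 4 hosts, and the median length was 2500, 3584 and 5764 nt. Members higher in the eIF4A2 IP had a median GC content of 48.2%, those lower 40.8% and those not called 46.5%. These medians were 47.3%, 40.1% and 46.65% for the eIF4A1 IP and 46.6%, 40.8% and 47.4% for the DDX6 IP. The lower groups held only 6 members at a single locus with eIF4A2, 11 with eIF4A1 and 12 with DDX6.

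Most LINC transcripts were lower in polysomal than in subpolysomal RNA. Polysomal RNA was not tested against input here. With control siRNA the members' summed level was 517 CPM in polysomal RNA, or 548.5 without replicate 3. It was 580.2 in input and 1157 in subpolysomal RNA. With control siRNA, 2 of 74 members (2.7%) were higher and 54 (73%) lower in polysomal than in subpolysomal RNA, against a background of 30.3% higher and 34.9% lower among 15500 genes. The median log2 fold change was −1.28 for the members and −0.06 for all genes. Without both polysomal replicate 3 libraries, 3 were higher and 55 lower, against 31% and 36.8%. Of the 56 calls, 6 of 13 coding members, 5 of 6 hosts and 43 of 55 others were lower, with median log2 fold changes of −0.55, −2.72 and −1.43. Without both libraries 6, 5 and 44 were lower, with medians of −0.45, −2.56 and −1.30. In bulk RNA, fewer cells with a transcript and less of it per cell cannot be told apart, and these levels are shares of each library, not amounts per cell.

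Of the 46 members that overlap no coding gene, 32 were lower (median log2 −1.03), or 33 without both replicate 3 libraries (−0.92). Of those with an overlap, 12 of 14 on the opposite strand and 4 of 6 on the same strand were lower with and without both libraries. In the lists of comparison, 201 of 243 antisense transcripts were lower and 8 higher (median −1.61), or 211 and 5 of 257 without both libraries (−1.45). All 6 established snoRNA host genes were lower in either fit (−3.45 and −3.26), as were the 14 mitochondrial transcripts tested, while 3 of 12 SMIM genes were lower and 1 higher in either fit (−0.26 and −0.11).

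LINC00338 (SNHG20, chr17:75082798-75095984, plus strand) was at 135.7, 130.2, 110 and 126.6 CPM in subpolysomal and at 10.6, 10.7, 8.90 and 11.8 in polysomal RNA with control siRNA. LINC00461 was at 8.99, 9.63, 5.00 and 7.45 CPM against 0.193, 0.230, 0.282 and 0.344. For neither did any polysomal library come near a subpolysomal library. The log2 fold changes were −3.65 (SE 0.155, edgeR FDR 1.51e-07) for LINC00338, −4.93 (SE 0.302, FDR 4.72e-07) for LINC00461 and −3.34 (SE 0.194, FDR 3.6e-07) for LINC00888. Without both replicate 3 libraries these values were −3.54, −4.92 and −3.22, and LINC00663 (−3.23, SE 0.375, FDR 3.72e-05) then stood among the 3 largest decreases. Of the hosts, LINC00669 was not called with (−0.05) or without (0.10) both libraries.

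LINC00342 (chr2:96472800-96500751, minus strand), a noncoding member, went the other way. It was at 3.18, 3.68, 3.37 and 2.12 CPM in subpolysomal and at 11.7, 7.88, 6.92 and 10.4 in polysomal RNA with control siRNA, with no overlap. The log2 fold change was 1.5 (SE 0.249, edgeR FDR 0.000263), or 1.66 (SE 0.218, FDR 8.57e-05) without both replicate 3 libraries. The second member called higher was LINC00648 (log2 0.86, or 0.98 without both), at 0.581, 0.590, 0.619 and 0.484 CPM against 1.27, 1.06, 0.926 and 1.12.

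Coding members were spread over this range. LINC00998 was at 63.5, 61.9, 58.1 and 53.6 CPM in subpolysomal and at 71.1, 92.0, 40.1 and 77.4 in polysomal RNA, where the lowest value is that of the library labelled replicate 3. It was not called over all 8 libraries (log2 0.18, SE 0.226, edgeR FDR 0.501) and was higher in polysomal RNA without both replicate 3 libraries (0.41, SE 0.117, FDR 0.0104). LINC00493 had a log2 fold change of 0.19 (FDR 0.441), or 0.36 (FDR 0.0767) without both libraries, and LINC00641, a noncoding member, of 0.02 (FDR 0.9), or 0.09 (FDR 0.573). LINC00094 at −1.18 (SE 0.152, FDR 4.52e-05) and LINC00116 at −1.28 (SE 0.415, FDR 0.0176) were lower in polysomal RNA, and without both libraries their values were −1.05 (FDR 2.46e-05) and −1.36 (FDR 0.0253). The groups of LINC00116 overlapped, at 4.50, 3.59, 12.2 and 7.69 CPM in subpolysomal and 4.40, 2.17, 3.9 and 1.8 in polysomal RNA.

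The same ratio was taken between polysomal and subpolysomal libraries of equal replicate number, each such pair being called a gradient here. It is the log2 of polysomal over subpolysomal CPM with 0.5 CPM added to each and no TMM factor. The labels do not say that both libraries of a pair came from the same gradient. With control siRNA, the members' median lay −1.05, −1.04, −1.36 and −0.98 from that of all genes in gradients 1 to 4. The value farthest from 0 was that of gradient 3, and the mean was −1.11 ± 0.171 (SD, n = 4), or −1.02 ± 0.043 without it. With CNOT1 siRNA the values were −1.29, −1.03, −0.69 and −0.91, with a mean of −0.98 ± 0.25 (SD, n = 4), or −1.08 ± 0.191 without gradient 3. In every gradient of either siRNA the members were below all genes, and the 2 siRNA groups overlapped.

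**Figure D3:**
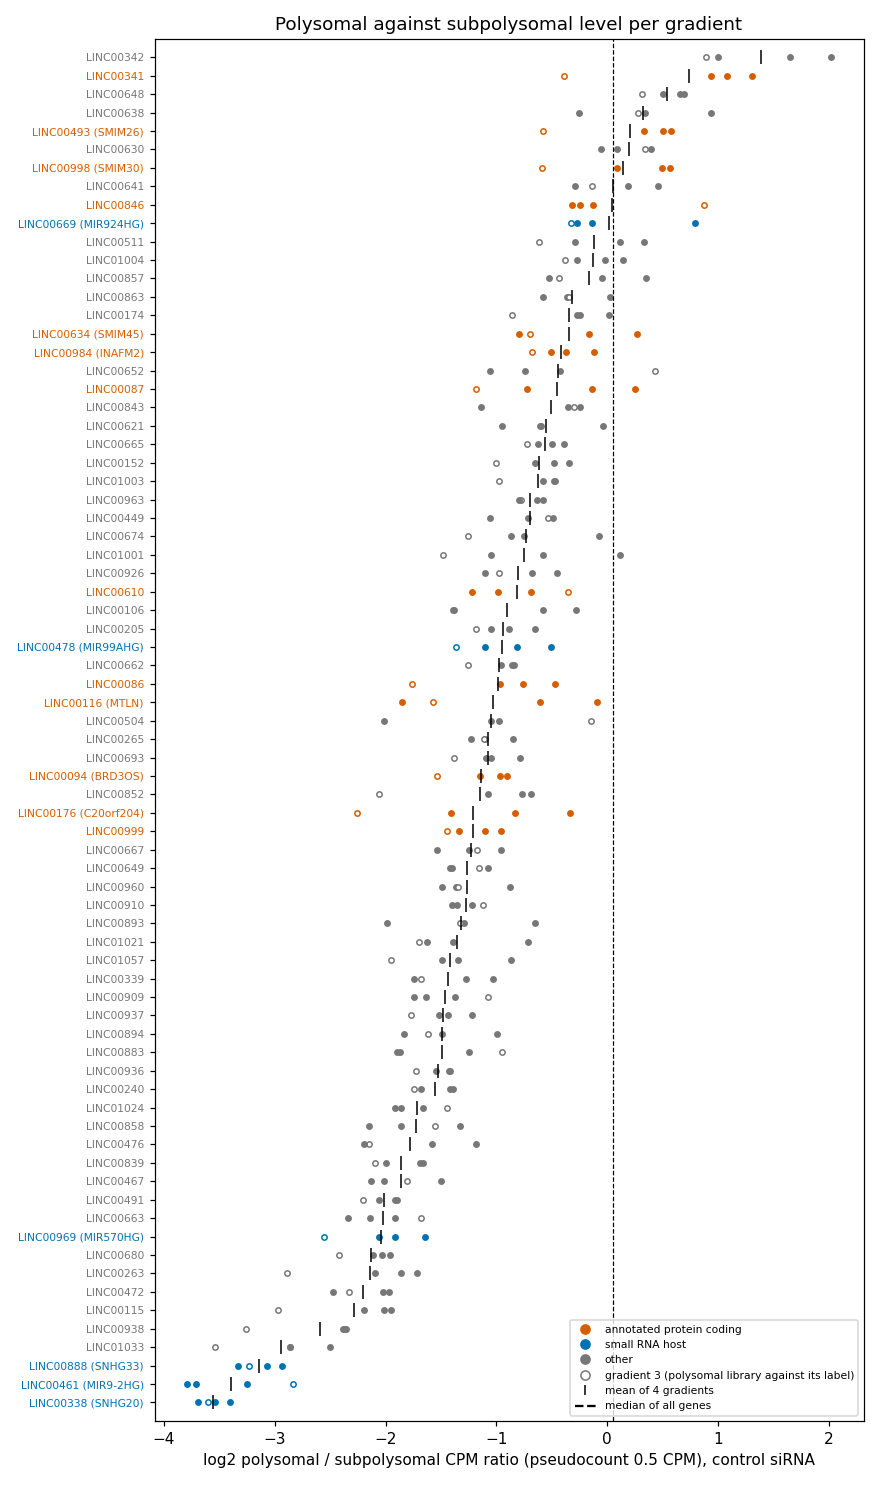
Log2 ratio of polysomal to subpolysomal CPM (0.5 added to each) for each of the 74 members in each gradient with control siRNA, by class. A gradient is a pair of libraries of equal replicate number, and the median of all genes is a dashed line. The hosts LINC00338, LINC00461 and LINC00888 have the lowest means, most members lie below the line and LINC00342 lies above it in all 4 gradients. Open points use the polysomal library labelled replicate 3.

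With CNOT1 siRNA, 3 of 74 members (4.05%) were higher and 57 (77%) lower in polysomal than in subpolysomal RNA, against 32.4% and 34% of 15654 genes. The medians were −1.01 and −0.02, and without both replicate 3 libraries 3 were higher and 62 lower, against 34.5% and 36.3%. LINC00342 was again higher in polysomal RNA, at 1.70, 1.61, 1.82 and 1.67 CPM against 4.92, 3.67, 17.0 and 5.75. The value of 17.0 belongs to the library labelled replicate 3, and the log2 fold change was 2.14 (SE 0.417, edgeR FDR 0.000486) with it and 1.45 (SE 0.205, FDR 2.42e-05) without. LINC00341 (log2 1.67, SE 0.342, FDR 0.000721) and LINC00846 (1.5) were the other members higher, at 1.56 and 1.53 without both libraries. The largest decreases were those of LINC00461 (−4.39, SE 0.317), LINC00115 (−3.23, SE 0.332) and LINC00338 (−3.19, SE 0.156), and without both libraries those of LINC00461 (−4.43), LINC00115 (−3.51) and LINC00936 (−3.21). Among coding members 2 were higher and 10 of 13 lower in either fit. The 2 were LINC00341 and LINC00846, whose current symbols have rows of their own. LINC00998 was lower (−0.55, SE 0.156, edgeR FDR 0.00689, or −0.58, FDR 0.00422, without both libraries).

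To ask how LINC transcripts depend on CNOT1, CNOT1 and control siRNA were compared within each RNA. In input RNA most members that changed fell. Of 74 members 3 (4.05%) rose and 33 (44.6%) fell, against a background of 30.9% and 30% of 15686 genes, and the median log2 fold change was −0.32 for the members and 0.00 for all genes. The 4 control libraries of this comparison also chose the members, which favours members that are high there. With members chosen instead by the mean over all 8 input libraries, 78 passed, of which 7 rose and 33 fell. With library totals in place of TMM factors 7 members rose and 27 fell, against 37.1% and 23.7%. Among coding members 2 rose and 6 fell, among hosts 5 of 6 fell, and among the others 1 rose and 22 fell. For comparison, 35 of 241 antisense transcripts rose and 73 fell, and 6 of 6 established snoRNA hosts fell.

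LINC00116 (MTLN, chr2:110969106-111002997, minus strand) showed the largest increase among members with a mean of at least 1 CPM. It was at 4.38, 3.23, 4.06 and 2.20 CPM with control siRNA and at 7.59, 6.64, 6.17 and 6.78 with CNOT1 siRNA, with no overlap. The log2 fold change was 0.99 (SE 0.157, edgeR FDR 5.95e-05). LINC00652 followed (0.90, SE 0.147, FDR 7.64e-05), from 1.62, 1.32, 1.27 and 1.16 CPM to 2.51, 2.24, 2.54 and 2.61, and then LINC00634 (SMIM45, log2 0.72), whose mean was below 1 CPM.

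With the same minimum, the largest decrease in input was that of LINC01057 (chr1:95079370-95320982, minus strand), now annotated as antisense to SLC44A3. It fell from 1.65, 1.17, 1.64 and 1.66 CPM to 0.666, 0.489, 0.758 and 0.627 (log2 −1.25, SE 0.197, edgeR FDR 5.26e-05). LINC00342 fell from 5.12, 6.46, 8.75 and 8.33 CPM to 2.60, 2.60, 4.00 and 3.62 (−1.14, SE 0.180, FDR 5.37e-05), and LINC00086 by 0.91 on the log2 scale (SE 0.187, FDR 0.000591). Neither of the former 2 had overlapping groups. Of the abundant members, LINC00998 fell, from 67.7, 64.4, 60.5 and 69.5 CPM to 56.4, 44.8, 49.1 and 52.3 (−0.36, SE 0.071, FDR 0.000439), and so did LINC00649 (−0.26, FDR 0.00441), while LINC00665 (0.07), LINC00641 (−0.09) and LINC00094 (0.11) did not pass the test.

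In subpolysomal RNA 3 of 73 members tested (4.11%) rose and 20 (27.4%) fell, against 12.6% and 15.2% of 15823 genes, with medians of −0.31 and −0.04. With the replicate block 5 rose and 33 fell, against 27% and 31.2%. With library totals in place of TMM factors, which raise the median of all genes by 0.25 on the log2 scale, 8 members rose and 9 fell, against 27.1% and 6.28%, so the split between directions depends on the scaling. All 3 members that rose were coding members. Of the 12 coding members tested, 1 fell (LINC00176), 6 had a positive log2 fold change, and the median was −0.05. Of the hosts 3 of 6 and of the others 16 of 55 fell, and none of either rose. With library totals 5 of the others rose too. Without CNOT1 siRNA subpolysomal replicate 2 the 23 calls became 14, without its replicate 4 they became 15, and without control replicate 1 or 4 they became 14.

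LINC00116 was at 4.50, 3.59, 12.2 and 7.69 CPM with control siRNA and at 14.4, 12.5, 22.6 and 19.6 with CNOT1 siRNA in subpolysomal RNA. Every CNOT1 siRNA library was above every control library. The log2 fold change was 1.33 (SE 0.371, edgeR FDR 0.0236), or 1.42 (FDR 1.03e-07) with the replicate block, and it was not called without CNOT1 siRNA replicate 3 (FDR 0.0624) or 4 (0.0562). LINC00094 rose from 59.0, 63.6, 68.3 and 64.9 CPM to 75.6, 83.5, 85.5 and 103.2 (0.47, SE 0.125, FDR 0.0183). LINC00998 rose from 63.5, 61.9, 58.1 and 53.6 to 88.8, 94.1, 65.8 and 64.6 (0.43, SE 0.135, FDR 0.0364). These 3 transcripts have annotated frames of 56, 84 and 59 codons, and LINC00998 had fallen in input.

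Among the decreases, the coding member LINC00176 fell from 1.47, 1.91, 3.54 and 2.72 CPM to 1.01, 0.853, 1.41 and 0.962 (log2 −1.16, SE 0.314, edgeR FDR 0.0208). LINC01057 fell by 0.99 (SE 0.223, FDR 0.00939) and LINC00894 by 0.95 (SE 0.177, FDR 0.00396) on the log2 scale. LINC00338 fell from 135.7, 130.2, 110 and 126.6 CPM to 86.6, 81.4, 61.9 and 82.0 (−0.66, SE 0.118, FDR 0.00342), after a fall of 0.51 in input (FDR 2.59e-05). The groups of LINC00338 did not overlap in either RNA.

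In polysomal RNA the 2 libraries that went against their labels changed the result. Over all 8 libraries none of 69 members was called by edgeR or by DESeq2, where edgeR called 0% of 14474 genes and DESeq2 0 of 14471. At an unadjusted p under 0.05, 1 member and 38 genes were higher, and 1 member and 61 genes lower. Without both replicate 3 libraries 5 members rose and 18 fell, against 21.8% and 18.9% of 14514 genes, with medians of −0.28 and 0.01.

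Without those libraries, LINC00511 (chr17:70286232-70636611, minus strand) fell from 5.87, 4.61 and 4.86 CPM in replicates 1, 2 and 4 to 1.87, 2.01 and 2.56 (log2 −1.26, SE 0.188, edgeR FDR 0.000881). Its labelled replicate 3 values were 3.18 with control and 4.65 with CNOT1 siRNA, the opposite order. LINC01057 fell by 1.37 (SE 0.357, FDR 0.013) and LINC00086 by 1.24 (SE 0.251, FDR 0.0038), as LINC00342 did by 1.07 (FDR 0.00299). LINC00652 (0.76, SE 0.238, FDR 0.029), LINC00858 (0.64, SE 0.214, FDR 0.0372) and LINC00116 (1.05, FDR 0.0236) rose.

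Of the 6 hosts, 5 fell in input, and LINC00669 (−0.12, FDR 0.553) did not pass the test. LINC00969 was at 14.2, 14.6, 14.3 and 13.1 CPM in control input and at 7.74, 7.49, 8.73 and 8.69 with CNOT1 siRNA (log2 −0.77, edgeR FDR 1.6e-06), and it fell by as much in subpolysomal RNA (FDR 0.00251). The log2 fold change of LINC00888 was −0.53 in input, with an FDR of 0.0018, and −0.56 in the subpolysomal pool, with an FDR of 0.00817 (0.0609 with library totals). LINC00478 fell by 0.42 and LINC00461 by 0.67 in input (FDR 0.00527 and 0.00619). In subpolysomal RNA LINC00461 did not pass the test (−0.58, FDR 0.0733) and passed it with the replicate block (FDR 0.000336), with all 24 gradient libraries in the fit or without control replicate 3, and LINC00478 (−0.15, FDR 0.43) and LINC00669 (−0.24, FDR 0.513) did not pass the test.

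**Figure D4:**
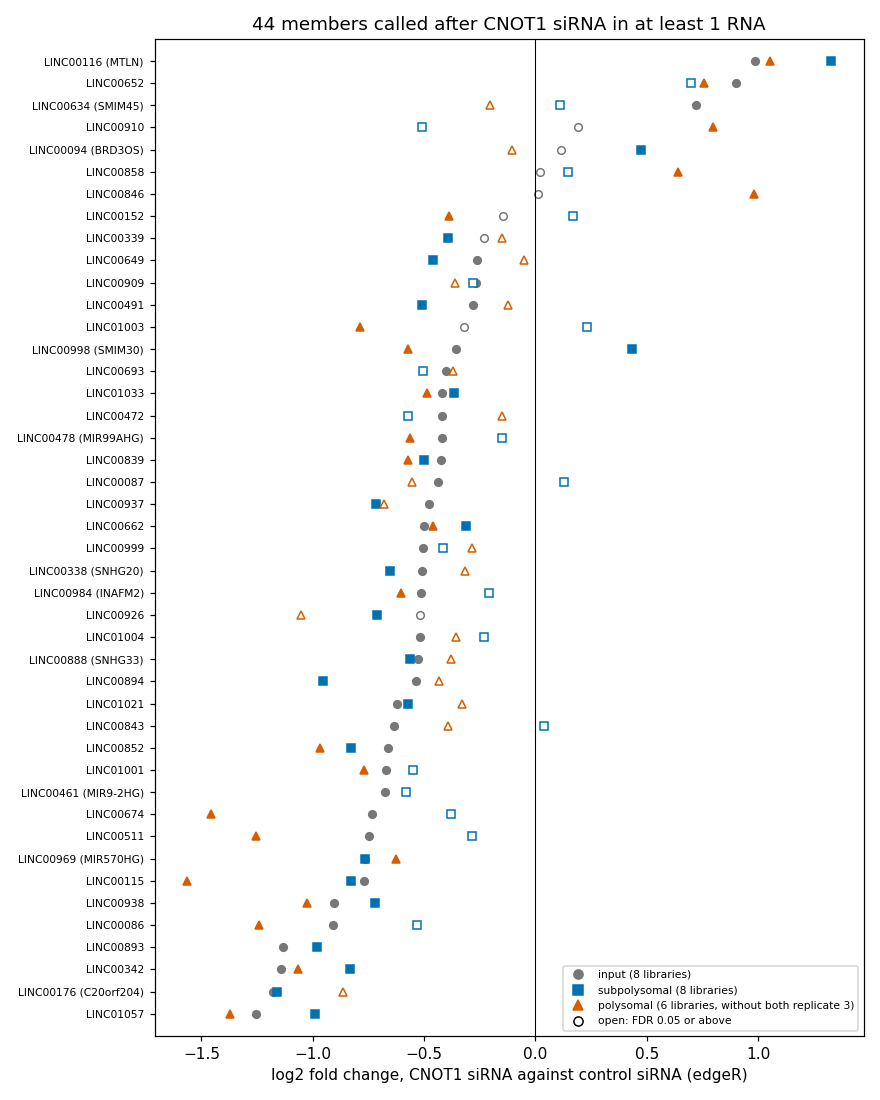
Log2 fold change of CNOT1 over control siRNA in input, subpolysomal and polysomal RNA (polysomal with 6 libraries, without both replicate 3) for the 44 members called in at least 1 of these RNAs, with filled points called. Most points lie below 0, LINC00116 lies above 0 in all 3 RNAs, and LINC00998 lies below 0 in input and polysomal RNA and above 0 in subpolysomal RNA.

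Whether CNOT1 siRNA moved a transcript between fractions was tested by subtracting its subpolysomal from its polysomal effect. Over all 16 libraries edgeR and DESeq2 called no member (in edgeR 8 were higher and 4 lower with p under 0.05 before adjustment), where edgeR called 0.951% of 16506 genes and DESeq2 3.13% of 16503. Without both replicate 3 libraries, 2 of 74 members rose and 4 fell (4 higher and 7 lower before adjustment), against 5.47% and 3.97% of 16805 genes. Before adjustment 1469 of all genes were higher and 1022 lower over all 16 libraries, and 2369 and 1732 without both. LINC00998 moved away from polysomes (log2 −0.96, SE 0.207, edgeR FDR 0.00962), with a ratio per gradient of 0.09, 0.57 and 0.50 in control gradients 1, 2 and 4 and of −1.16, −0.95 and −0.44 with CNOT1 siRNA. The 2 groups did not overlap, whereas gradient 3 by its labels gave −0.58 and −0.50. The others that fell were LINC01003 (−0.98, SE 0.267, FDR 0.03), LINC00511 (−0.93, SE 0.251, FDR 0.0292) and LINC00094 (−0.54, SE 0.157, FDR 0.0409), and those that rose were LINC00910 (1.35, SE 0.330, FDR 0.0189) and LINC00846 (1.84).

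With siRNAs against TNRC6A and TNRC6B no member of 63 tested was called by edgeR or by DESeq2, where edgeR called 0% and DESeq2 8 of 14064 genes. Before adjustment, 1 member and 173 genes were higher and 1 member and 116 genes lower with p under 0.05. The member higher at that level was LINC00116. It was at 1.54 and 0.687 CPM with control siRNA and at 5.03 and 3.13 with TNRC6A/B siRNA, so the groups did not overlap. Its log2 fold change was 1.83 (SE 0.526, edgeR FDR 0.9999), which did not pass the test. With the replicate block 2 of 63 members were higher and 2 lower (3.17% each), against 3.7% and 1.73% of all genes. LINC00116 was among those called. The 5 most abundant members had log2 fold changes from −0.30 to 0.20.

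**Figure D5:**
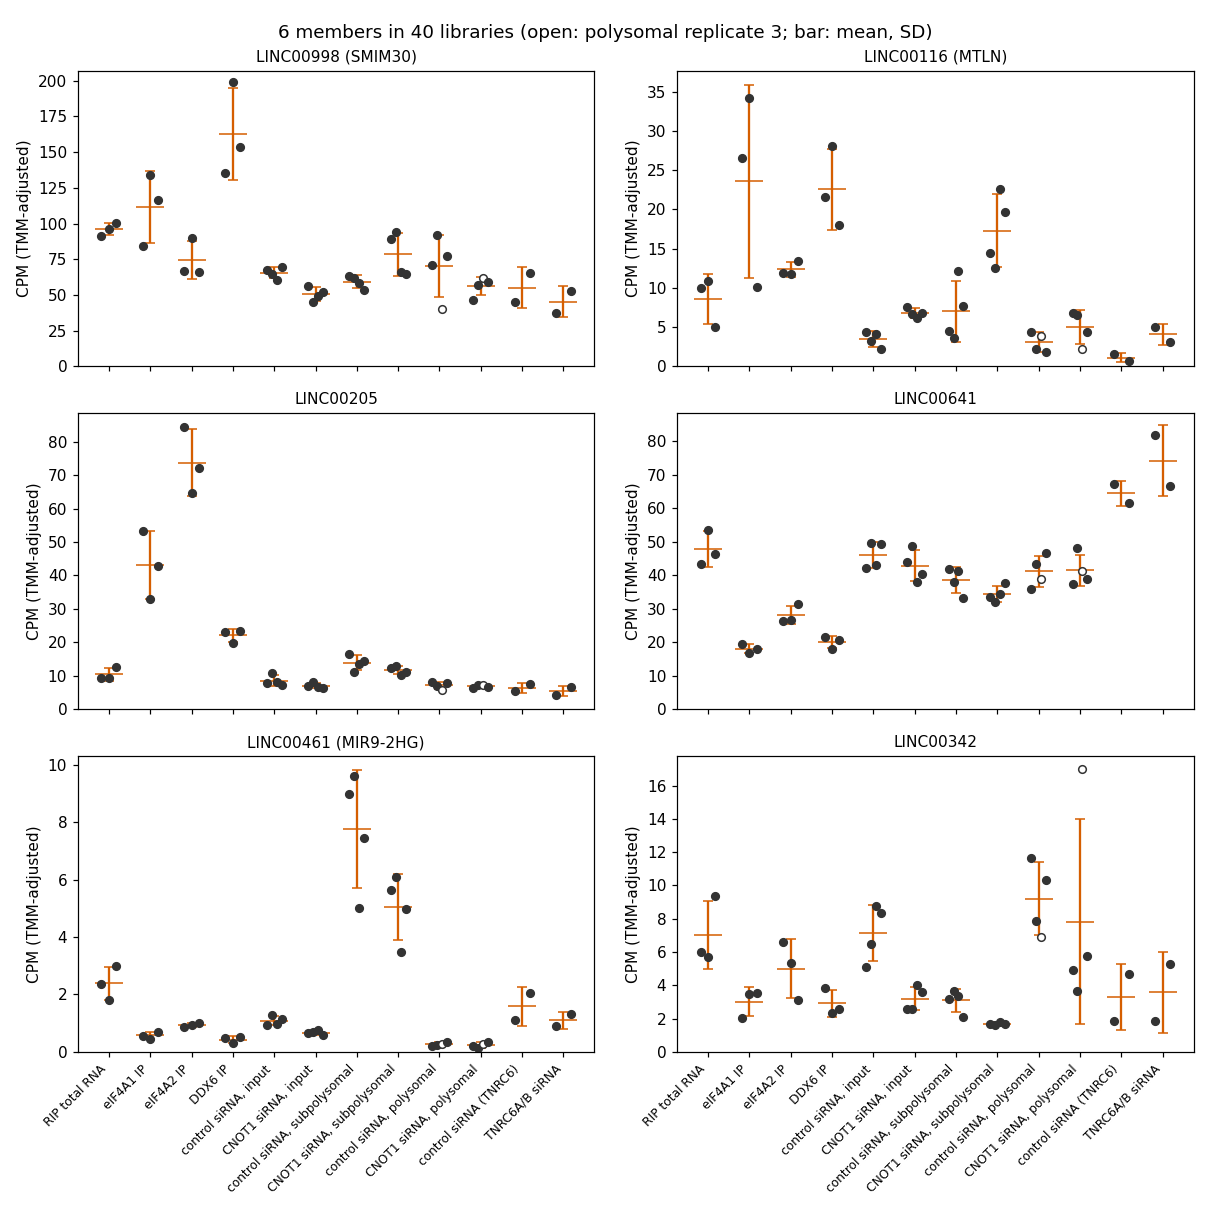
Level of LINC00998, LINC00116, LINC00205, LINC00641, LINC00461 and LINC00342 in each of the 40 libraries, in TMM-scaled CPM, by group, with bars for the mean and SD and open points for the polysomal libraries labelled replicate 3. LINC00205 is highest in the eIF4A2 IP (64.7 to 84.4), LINC00461 in subpolysomal RNA (3.48 to 9.63) and LINC00998 in the DDX6 IP (136 to 199).

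LINC00998 was also compared over the 12 group means with all genes of sufficient level, as a description over groups that share control libraries. The 5 genes whose pattern was most like it among 14980 were CDKN2AIPNL (Pearson r 0.992), RP11-622K12.1 (0.967), DYNLT3 (0.962), FAM96B (0.960) and CPT1C (0.960). Among the members, LINC00493 (0.923) and LINC00665 (0.884) were nearest. Without both polysomal replicate 3 libraries, CDKN2AIPNL (0.991), DYNLT3 (0.968) and RP11-622K12.1 (0.960) came first, GTF2H5 and UBL5 followed, and LINC00493 and LINC00665 were at 0.918 and 0.864.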

How the data were processed

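RNA-Seq of 40 HEK293 libraries was used, in 12 groups taken from the titles in the labels. For the total RNA library titled replicate 3 another label gives the number 2. The title was used, and the replicate block of the IPs against total RNA rests on it. The deposited counts are whole numbers of reads per gene symbol for each library. The authors made them with bcl2fastq 2.0, TopHat2 alignment to hg19 and htseq-count, without normalization, and the annotation release and strand option are not given in the sources used here. A deposited table of the authors' own edgeR comparisons of each IP with total RNA (fold changes and p-values) was not used.

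Counts were filtered with filterByExpr, scaled with TMM factors and tested on all genes with the two-sided quasi-likelihood F-test of edgeR 4.0.16 (limma 3.58.1; data.table, version 1.17.8; R 4.3.3). The 12 IP libraries were fitted together, the gradient comparisons with the 8 (or 16) libraries compared, and the TNRC6 experiment with its 4. A positive value means that the group named first was higher. Python 3.11.15, numpy 2.4.6 and pandas 2.3.3 were used for tables, and the fits were tested on simulated data. The labels do not say that samples of a group were separate cultures, so p-values measure the spread between these libraries, which may be technical. No pair of libraries of a group was the same within sampling noise (chi-square per gene of 5.08 or more). Reads carry no molecular identifiers, so depth gives counting error only.

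Samples of equal replicate number deviated together (r of deviations from group means above 0.1 in every pair) in the comparisons of the eIF4A1 IP (0.242 to 0.474), eIF4A2 IP (0.17 to 0.353), DDX6 IP (0.188 to 0.502), eIF4A2 with eIF4A1 (0.259 to 0.564), eIF4A2 with DDX6 (0.496 to 0.533), CNOT1 siRNA in input (0.173 to 0.282) and in subpolysomal RNA (0.534 to 0.69). In the TNRC6 experiment r was 0.821 in both pairs. Such pairing comes from the data and not from the labels. A fit with the replicate number as a block is given where it changed a call.

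The members and gene lists were chosen with earlier results of these data known. Members named in a comparison were the 3 largest increases and decreases among called members whose mean reached 1 CPM and whose groups did not overlap, next to the 5 most abundant, all coding and host members and those beside the threshold. LINC00648, LINC00843 and LINC01033 were added after their values were seen. The alternatives were DESeq2 1.42.0, factors by RLE, leaving low counts unfiltered, other sets of libraries, the replicate block and leaving out each library. Library totals without TMM factors, and combinations of settings without both polysomal replicate 3 libraries, were chosen after seeing the data.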

Additional observations from a re-analysis of the deposited data

Results flagged for a closer look

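In groups of 4 libraries, 16 of 240 groups over 40 items had a library whose gap to the nearest other exceeded Dixon's 95% critical value, where chance gives 12. Of these 16, 6 were in the polysomal libraries labelled replicate 3. These were CNOT1 itself, at 27.38 CPM in the control library (446.8 to 468.8 in the others) and at 589.8 in the CNOT1 siRNA library (22.93 to 31.47), the summed level of the 74 members at 422.6 CPM in the control library (540.3 to 552.8), LINC00342 at 16.98 in the CNOT1 siRNA library (3.668 to 5.754), LINC00680 at 9.536 in the same library (13.28 to 13.86) and LINC00984 at 6.522 in the control library (10.46 to 10.88).

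In control input, LINC00094 was at 28.61 CPM in replicate 3 (32.36 to 33 in the others) and LINC01057 at 1.166 in replicate 2 (1.636 to 1.665). In CNOT1 siRNA input, LINC00467 was at 1.882 in replicate 3 (1.713 to 1.724), LINC00493 at 18.87 in replicate 4 (17.05 to 17.24), LINC00846 at 0.643 in replicate 2 (0.5309 to 0.549), LINC00858 at 2.649 in replicate 2 (2.118 to 2.178) and LINC00894 at 1.059 in replicate 1 (1.279 to 1.312). In subpolysomal RNA, LINC00999 was at 6.129 in control replicate 3 (4.882 to 5.04), LINC01003 at 3.633 in control replicate 2 (3.088 to 3.149) and LINC00846 at 0.5547 in CNOT1 siRNA replicate 3 (0.164 to 0.2208).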

How the results depend on the processing

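Of the 45 named results that were called in the main fits, 0 changed direction under any alternative run. Named results that were not called are outside these 45. That of LINC00669 in polysomal against subpolysomal RNA with control siRNA changed sign without both polysomal replicate 3 libraries. For the change of the ratio, the members with an unadjusted p under 0.05 turned from 8 higher and 4 lower (median of all members 0.21) to 4 and 7 without both polysomal replicate 3 libraries (−0.01) and to 0 and 6 with library totals (−0.05). Of all genes 1469 were higher and 1022 lower at that level, or 2369 and 1732 without both libraries. With library totals, which moved the median of all genes by −0.265, 0.315% of all genes were called higher and 4.83% lower at an FDR below 0.05. Of 45 named results, 36 kept their call under all alternatives, and of 607 alternative values 569 kept it and 38 lost it. The cause was not tested for the changes below. Between the eIF4A2 and eIF4A1 IPs, 1 member was called, and 2 with DESeq2, 5 with no filter on low counts, 0 with only the compared libraries and 13 with the replicate block. Of all genes 1.06% were called in the main fit, 4.01% with DESeq2 and 15.8% with the block. The replicate block raised the calls from 18 to 36 between the eIF4A2 and DDX6 IPs, from 23 to 38 for CNOT1 siRNA in subpolysomal RNA and from 0 to 4 of 63 for TNRC6A/B siRNA, where 5.43% of all genes were then called and the 2 pairs share only a number (r 0.821). The 4 were LINC00116, LINC00087, LINC00984 and LINC01033. With the block 40.5% of all genes were called between the eIF4A2 and DDX6 IPs (21.1% without it). For CNOT1 siRNA in subpolysomal RNA 58.2% were (27.8% without it). Without both polysomal replicate 3 libraries, 23 members were called for CNOT1 siRNA in polysomal RNA, or 19 with DESeq2 and 31 with the replicate block. For the change of the ratio they were 6, or 5 with DESeq2 and 8 with the replicate block, and over all libraries 2 with library totals and 1 with no filter. Of all genes, edgeR without both libraries called 40.6% for CNOT1 siRNA in polysomal RNA and 9.44% for the ratio. Library totals over all libraries called 5.15% for the ratio. Shares of all genes for the other counts are not given here. In the comparisons with polysomal libraries equal numbers did not deviate together in every pair (1 of 4 pairs above 0.1 for polysomal against subpolysomal RNA with control siRNA, 0 of 4 with CNOT1 siRNA, 0 of 4 for CNOT1 siRNA in polysomal RNA and 7 of 24 for the change of the ratio, among them the 4 pairs of subpolysomal libraries at 0.497 to 0.647), and the block changed no other count of calls by over 1.5 times. Leaving out 1 library gave 44 to 49 calls in the eIF4A1 IP, 38 to 41 in the eIF4A2 IP, 39 to 43 in the DDX6 IP, 0 to 1 between eIF4A2 and eIF4A1, 7 to 20 between eIF4A2 and DDX6, 54 to 58 and 56 to 65 for polysomal against subpolysomal RNA with control and CNOT1 siRNA, 32 to 38, 14 to 18 and 0 to 0 for CNOT1 siRNA in input, subpolysomal and polysomal RNA, 0 to 1 for the change of the ratio and 0 to 0 for TNRC6A/B siRNA. Library totals moved the median log2 of all genes by 0.255, 0.316 and 0.149 in the eIF4A1, eIF4A2 and DDX6 IP, where 45, 46 and 36 members were then higher and 7, 4 and 10 lower (of all genes 36.9%, 37.4% and 28.9% higher and 17.8%, 16.3% and 17.1% lower), by 0.168 between eIF4A2 and DDX6 (22 higher and 1 lower) and by −0.237 for polysomal RNA with CNOT1 siRNA. Low counts limit members near 0.5 CPM most.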
